A study of Mus musculus with 36 samples.

Results

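The lysosomal cathepsin genes of the liver were examined across genotype and time of day. The group was taken from the gene count table by gene name and holds *Ctsc*, *Ctsa*, *Ctsb*, *Ctsd*, *Ctsf*, *Ctsh*, *Ctsl*, *Ctso*, *Ctss* and *Ctsz*, which are 10 of 54532 genes in the table. All 10 were counted in every one of the 36 libraries, with at least 426 reads, and all 10 passed the filter on low counts. *Ctsc* had been singled out from the group because of its difference between the genotypes, so that difference is given here as a description, without a test.

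Cathepsins are proteases of the endosome and lysosome. They are made as inactive precursors, sorted to the lysosome largely through the mannose 6-phosphate tag, and activated by cleavage at acid pH. Most members of the family are cysteine proteases of the papain type (*Ctsb*, *Ctsc*, *Ctsf*, *Ctsh*, *Ctsl*, *Ctso*, *Ctss* and *Ctsz*), while CTSD is an aspartic protease and CTSA a serine carboxypeptidase. CTSC, also called dipeptidyl peptidase I, removes dipeptides from the amino end of proteins and activates the granule serine proteases of neutrophils, mast cells and cytotoxic lymphocytes. In liver, both hepatocytes and Kupffer cells, the resident macrophages, carry cathepsins.

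The samples were livers of adult male mice on chow, kept under a light/dark cycle, in which zeitgeber time (ZT) counts the hours from lights on. The controls, labelled WT, were THRB+/- mice and carried 1 altered *Thrb* allele. The knockouts, labelled KO, were THRB-/- mice in which both isoforms of thyroid hormone receptor beta are lost, from the strain B6.129S1-Thrbtm1Df/J bred on a C57Bl/6NCrl background. The loss is present in all tissues and throughout life, so a difference in liver RNA cannot be assigned to the liver receptor alone. Livers were taken every 4 h from ZT2 to ZT22, from 3 mice per genotype and time, which gives 18 livers per genotype with 1 library each.

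Libraries held 29063273 to 42530551 gene-assigned reads. By correlation over all tested genes no library stood apart from its group (median with the other libraries of its group 0.980 to 0.987). The macrophage markers of 1 control at ZT18 (letter b) were high, as given below. Levels are given as CPM, gene counts scaled to the size of the library by the trimmed-mean method (TMM). *Thrb* itself was counted at 24.3 to 38.5 CPM in controls and at 26.2 to 37.7 CPM in THRB-/- livers. These ranges overlap, and counts per gene do not separate the altered transcript from the intact one, so the *Thrb* level gave no check of the genotype labels. The tissue label was checked with 10 hepatocyte markers, whose summed level was 69276 to 95376 CPM in controls and 78466 to 100672 CPM in THRB-/- livers. In whole liver, fewer cells of a type and less RNA per cell cannot be told apart.

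The upstream sequence of 3 members is shown because THRB is a DNA-binding receptor and because the genes differ in the letters they hold. RefSeq promoter windows on GRCm38.p6 were found for 8 of the 10 members, with 2 start sites for *Ctsa* and no entry for *Ctsb* and *Ctsh*. The 250 bases before each start were searched on both strands for AGGTCA, the half-site of many nuclear receptors, for CACGTG, the E-box core, and for GTCACGTG, a longer form that contains the E-box core and is known from TFEB target genes of the lysosome. Capitals mark AGGTCA or its complement TGACCT and CACGTG, and the shown stretches, 5′ to 3′, hold no exon of the GENCODE annotation. *Ctsc* (chr7:88277835-88278084, plus strand), *Ctsf* (chr19:4854915-4855129, plus strand, the exon-free part of its window) and *Ctss* (chr3:95526536-95526785, plus strand) read as follows.
Ctsc: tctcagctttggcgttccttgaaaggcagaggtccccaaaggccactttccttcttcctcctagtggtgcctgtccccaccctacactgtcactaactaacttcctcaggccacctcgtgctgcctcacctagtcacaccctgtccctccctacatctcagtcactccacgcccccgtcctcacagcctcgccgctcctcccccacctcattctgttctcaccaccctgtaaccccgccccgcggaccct
Ctsf: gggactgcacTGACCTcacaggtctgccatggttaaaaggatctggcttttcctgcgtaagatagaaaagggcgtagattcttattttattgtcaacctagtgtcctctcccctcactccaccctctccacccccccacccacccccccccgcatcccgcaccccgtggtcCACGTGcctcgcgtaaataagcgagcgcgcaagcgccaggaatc
Ctss: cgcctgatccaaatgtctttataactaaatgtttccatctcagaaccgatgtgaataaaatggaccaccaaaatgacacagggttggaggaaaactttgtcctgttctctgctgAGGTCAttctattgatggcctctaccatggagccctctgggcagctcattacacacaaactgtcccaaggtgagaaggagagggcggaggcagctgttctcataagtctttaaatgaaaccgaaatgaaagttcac
The *Ctsc* window held none of the 3 motifs, the *Ctsf* window held 1 CACGTG and 1 AGGTCA, and the *Ctss* window held 1 AGGTCA. Over all 8 genes, AGGTCA was found in 4 of 9 windows (*Ctsa*, *Ctsd*, *Ctsf* and *Ctss*), against 14% of 32851 windows of all genes. CACGTG was found in 4 of 9 windows (*Ctsa*, *Ctsd*, *Ctsf* and *Ctsl*), against 6.02% of all windows. The longer GTCACGTG was in 2 of 9 windows (*Ctsa* and *Ctsd*), against 1.85% of all windows. These shares were not tested. The *Ctsa* window with AGGTCA overlaps exon sequence of *Neurl2*. The *Ctsl* window, which held CACGTG and no AGGTCA, lies within the *Ctsl* gene, 214 bases from the nearest GENCODE start. The *Ctsa* window with CACGTG and GTCACGTG (chr2:164833523-164833772) lies within the *Ctsa* gene, 34 bases from the nearest GENCODE start. It overlaps *Ctsa* exon sequence. The *Ctsd* window overlaps *Ctsd* exon sequence, and its longest exon-free stretch is 39 bases. Each window with GTCACGTG thus overlaps exons of its own gene. A match of letters is a description of the sequence and not a binding site.

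*Ctsc* (ENSMUSG00000030560, GRCm38 chromosome 7 from 88278085 to 88310888, plus strand) was the member with the higher level in THRB-/- livers. It measured 86.8 ± 12.9 CPM in controls (SD, n = 18, range 65.8 to 119.7, median 83.2) and 135.6 ± 25.4 CPM in THRB-/- livers (SD, n = 18, range 97.4 to 197.8, median 123.7). The log2 difference, with sampling time in the model, was 0.64 with a standard error of 0.068, a 1.56-fold higher level. In 13 of 18 THRB-/- livers *Ctsc* was above the highest control.

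At ZT2 the controls had 84.1, 92.7 and 90.1 CPM of *Ctsc* and the THRB-/- livers 197.8, 151.3 and 144.1. At ZT6 the values were 104.4, 104.6 and 94.1 against 171.9, 118.6 and 125.3. At ZT10 they were 77.5, 81.8 and 82.3 against 160.1, 152.2 and 121.8. In these 3 daytime groups every THRB-/- liver was above every control.
At ZT14 the controls had 70.4, 88.1 and 84.6 CPM and the THRB-/- livers 97.4, 110.9 and 122.1. At ZT18 the values were 82.3, 119.7 and 81.0 against 119.8, 117.8 and 142.3. At ZT22 they were 77.9, 65.8 and 80.7 against 120.4, 155.0 and 111.7. The genotypes overlapped at ZT18 alone, where 1 control reached 119.7 CPM, the highest *Ctsc* value of all controls. The difference at single times was between 0.44 (ZT6, ZT14 and ZT18) and 0.87 (ZT2) on the log2 scale, with the THRB-/- mean higher at 6 of 6 times. Groups that did not overlap, with THRB-/- higher, at 5 or more of 6 times were found for 16 of 17994 genes (0.0889%), and since *Ctsc* was selected on this contrast nothing is read from its place among them.

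**Figure D1:**
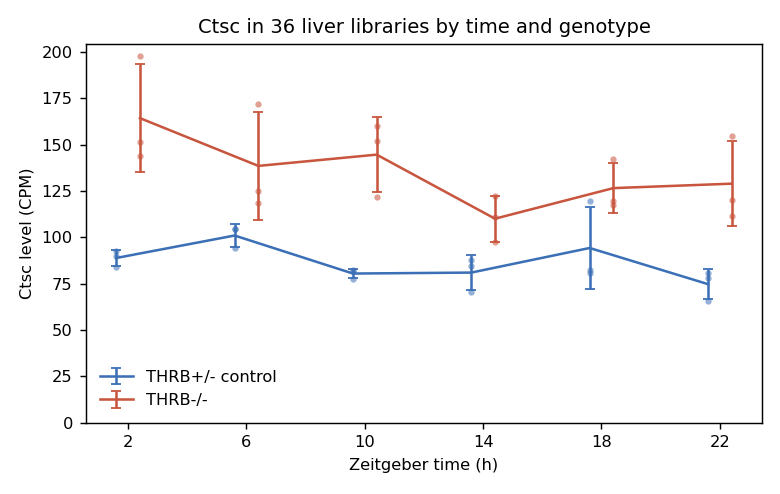
*Ctsc* level in CPM (vertical axis, from 0) against zeitgeber time in hours, for THRB+/- controls (blue) and THRB-/- livers (red). Points are mice, lines join the means of 3 mice and bars are SD. The THRB-/- means run from 110.1 to 164.4 CPM and the control means from 74.8 to 101.1 CPM.

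The control with the high value at ZT18 (letter b) also had the highest summed level of 15 Kupffer cell and macrophage markers, 1148 CPM, against a median of 543.7 CPM in controls and 549.8 CPM in THRB-/- livers. Without this liver, an omission chosen after the data were seen, the log2 difference of *Ctsc* was 0.68 with a standard error of 0.063. The same liver had 46.8 CPM of *Ctss*, the highest value of that gene, too. The control next in the marker sum, at ZT2 (letter a), had 823.0 CPM of the markers and 84.1 CPM of *Ctsc*. The THRB-/- liver with the highest sum, at ZT6 (letter a), had 803.7 CPM of the markers and 171.9 CPM of *Ctsc*. Whether the *Ctsc* value goes with the markers in these livers was not tested.

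The other 9 cathepsins had smaller differences between the genotypes. On the log2 scale these ran from -0.05 (*Ctsz*) to 0.08 (*Ctso*), with a median of -0.01 against -0.001 over all tested genes, 4 above and 5 below 0. For genotype 0.950% of the 17994 tested genes were called, *Ctsc* among them and none of the other 9, and nothing is read from this count because *Ctsc* was selected on the contrast. The 95% intervals of the other 9 are given as a description. The widest was that of *Ctss* (-0.24 to 0.20), the least counted member, and the other 8 lay between -0.12 and 0.15. The intervals of *Ctsh* (0.01 to 0.14) and *Ctso* (0.001 to 0.15) lay just above 0, and both genes had a higher THRB-/- mean at 5 of 6 times. These intervals are not adjusted for the number of genes, neither gene was called after adjustment, and 12.1% of all tested genes had an unadjusted p under 0.05 for genotype.

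*Ctsd*, the main aspartic protease of the lysosome, had a log2 difference of -0.03 (interval -0.09 to 0.03). Its groups did not overlap at ZT2 and ZT6, beside 12.9% and 8.41% of all tested genes at these times, which includes either direction. At ZT2 the controls had 200.1, 205.5 and 205.9 CPM and the THRB-/- livers 183.4, 197.7 and 195.8. At ZT6 the values were 202.8, 220.8 and 198.1 against 192.6, 192.8 and 185.8. From ZT10 to ZT22 the groups overlapped. *Ctso* was the other gene of the 9 without overlap at a time, at ZT2, with 36.1, 39.3 and 39.6 CPM in controls against 43.6, 40.0 and 44.5 CPM in THRB-/- livers.
*Ctsb*, an endopeptidase and the most counted member, measured 586.0 ± 33.8 CPM in controls and 594.3 ± 45.1 CPM in THRB-/- livers (SD, n = 18 each). *Ctsl*, an endopeptidase, measured 446.9 ± 73.9 and 441.8 ± 53.6 CPM. *Ctsz*, a carboxypeptidase, measured 253.9 ± 24.8 and 245.8 ± 18.5 CPM. In these 3 abundant genes the ranges of the genotypes overlapped at every sampling time.
*Ctsh*, an aminopeptidase, measured 224.0 ± 22.1 and 236.0 ± 18.7 CPM. *Ctsa*, the carboxypeptidase that protects neuraminidase 1 and beta-galactosidase in a complex, measured 166.8 ± 18.2 and 164.6 ± 17.9 CPM. *Ctso*, *Ctsf* and *Ctss*, the 3 lowest members on this scale, stood at 39.8 ± 4.05, 31.8 ± 3.15 and 23.4 ± 7.84 CPM in controls and at 42.0 ± 5.08, 32.1 ± 2.90 and 23.0 ± 5.16 CPM in THRB-/- livers. CTSS is best known for cutting the invariant chain in antigen-presenting cells.

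**Figure D2:**
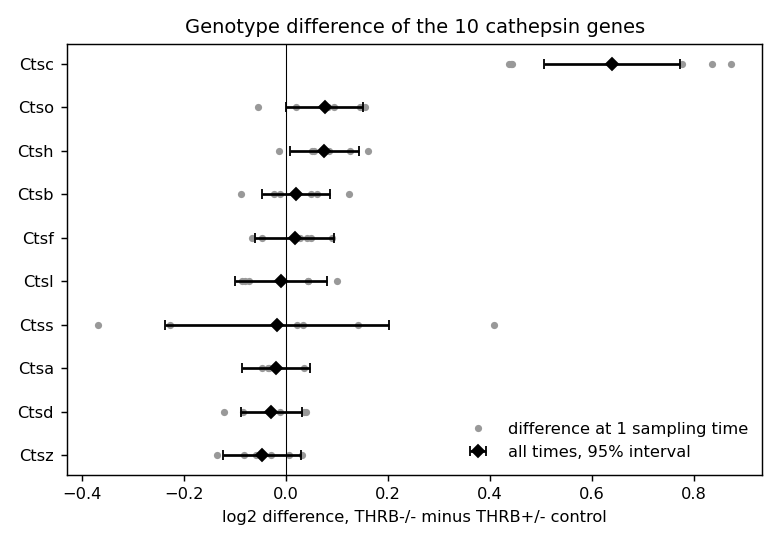
Log2 difference between THRB-/- and THRB+/- control livers (horizontal axis) for each of the 10 cathepsin genes, over all times with its 95% interval (black diamonds) and at each sampling time (grey points). *Ctsc* lies at 0.64 and the other 9 genes between -0.05 and 0.08.

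Within a library the ratio of *Ctsc* to the mean log2 level of the other 9 cathepsins is free of the library's scaling. This log2 ratio was -0.64 ± 0.18 in controls (SD, n = 18, range -0.92 to -0.20) and -0.02 ± 0.21 in THRB-/- livers (SD, n = 18, range -0.34 to 0.50). It was above the highest control in 15 of 18 THRB-/- livers. Whether *Ctsc* differs from the other cathepsins in its response was not tested, since it was chosen on this contrast. The summed level of all 10 members was 1874 to 2382 CPM in controls and 1912 to 2335 CPM in THRB-/- livers.

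The genes around *Ctsc* were read as well, out of the rule for named genes and after their values were seen. Within 1 Mb lay 22 other annotated genes, of which 5 had enough reads for a test. *Gm44751*, a lincRNA that starts 590 bases past the annotated end of *Ctsc* on the same strand, had 0.853 ± 0.157 CPM in controls and 1.42 ± 0.324 CPM in THRB-/- livers (SD, n = 18 each), and its log2 difference of 0.73 with a standard error of 0.108 passed (adjusted p = 9.0e-05). This and all adjusted p-values that follow came from the quasi-likelihood test of edgeR, adjusted after Benjamini and Hochberg over all tested genes. The call held in 10 of 10 alternatives, with an adjusted p of at most 0.039. Since its neighbour *Ctsc* was selected on this same contrast, the call is no separate support and nothing is read from it. Whether the reads of *Gm44751* are apart from those of *Ctsc* was not tested. *Nox4* (0.18, adjusted p = 0.212), *Rab38* (0.11, adjusted p = 0.934), *Tmem135* (0.02, adjusted p = 0.902) and *Rps13-ps2* (-0.06, adjusted p = 0.846) did not pass. *Gm26522*, a lincRNA on the opposite strand, lies within *Ctsc* and had 20 reads over all 36 libraries. The libraries do not keep strand, so reads of the *Ctsc* locus cannot be told apart by strand.

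Levels of different genes were compared per length. The deposited gene lengths were used, from 1358 bases (*Ctss*) to 6489 bases (*Ctsl*), and the order depends on them. Whether they match the transcripts made in liver was not tested. By CPM, without length, *Ctsb* (586.0) and *Ctsl* (446.9) stood above *Ctsz* (253.9) in controls. In controls *Ctsz* had the highest level, 176.2 ± 17.2 CPM per kb (SD, n = 18), followed by *Ctsb* with 96.9 ± 5.59, *Ctsd* with 87.7 ± 4.55, *Ctsl* with 68.9 ± 11.4, *Ctsh* with 49.8 ± 4.91 and *Ctsa* with 35.4 ± 3.87. The low end held *Ctss* with 17.3 ± 5.77 CPM per kb, *Ctsf* with 16.1 ± 1.60, *Ctsc* with 14.9 ± 2.22 and *Ctso* with 7.77 ± 0.791. The ranges of neighbours in this order overlapped among controls, except between *Ctsz* and *Ctsb* and between *Ctsc* and *Ctso*. In THRB-/- livers *Ctsc* measured 23.3 ± 4.38 CPM per kb and stood in place 7 in place of 9, above *Ctss* and *Ctsf*, while the order of the other genes was kept.

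**Figure D3:**
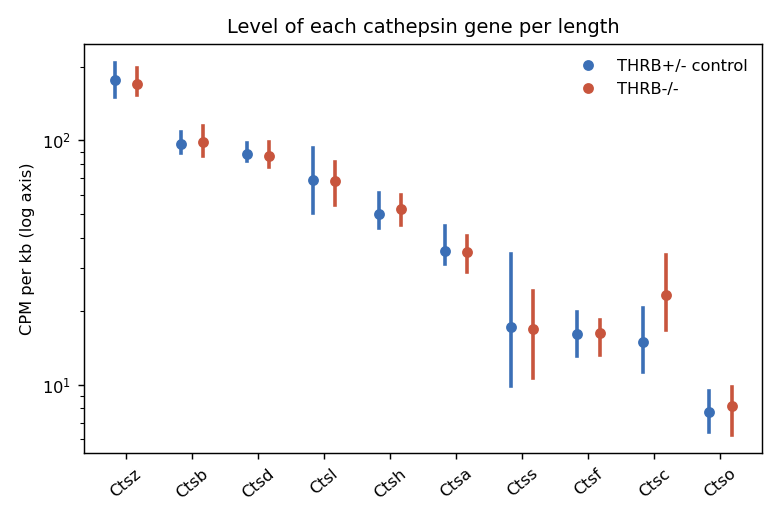
Level per length in CPM per kb (log axis) of the 10 cathepsin genes in the order of the control means, for THRB+/- controls (blue) and THRB-/- livers (red). Points are means of 18 mice and bars run from the lowest to the highest mouse. *Ctsz* is highest at 176.2 and *Ctso* lowest at 7.77 in controls.

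Time of day was tested next, in a comparison other than the genotype difference for which *Ctsc* had been singled out. Of the 10 cathepsins, 5 varied over the day in the 36 livers with genotype in the model, namely *Ctsa*, *Ctsl*, *Ctso*, *Ctsh* and *Ctsf*, beside 45.0% of all tested genes. The share among members is thus near the background. All 5 were highest in the light phase, at ZT6 or ZT10, and lowest at ZT18, ZT22 or ZT2. The median daily range over the 10 members was 0.29 log2 units, against 0.49 over all tested genes. The tested genes include genes with far lower levels than any member, and the comparison was not matched for level. Whether the members vary less over the day than other genes of their level was not tested.

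*Ctsl* had the largest daily range of the 5. At ZT6 it measured 469.2 to 603.2 CPM (median 492.3, n = 6, both genotypes) and at ZT18 328.1 to 465.4 CPM (median 359.3), a 1.34-fold difference (adjusted p = 4.9e-05). All 6 livers at ZT6 were above all 6 at ZT18, at the nearest 469.2 against 465.4 CPM. Here and for the genes below, the times compared were the highest and lowest in these data, which favours separation. The share of all genes with such a separation was not computed, so nothing is read from it.
*Ctso* measured 40.2 to 49.95 CPM at ZT10 (median 47.5) and 32.0 to 38.3 CPM at ZT18 (median 35.9), a 1.30-fold difference (adjusted p = 2.1e-04). Here, too, the 6 livers of each time did not overlap.
*Ctsa* measured 184.9 to 211.1 CPM at ZT6 (median 188.3) and 147.7 to 156.3 CPM at ZT22 (median 150.9), a 1.27-fold difference without overlap (adjusted p = 2.6e-05). Its level stayed near 150 CPM from ZT14 to ZT22, with means of 152.1, 157.1 and 150.9 CPM.
*Ctsf* measured 30.8 to 39.1 CPM at ZT10 (median 34.2) and 25.9 to 31.1 CPM at ZT2 (median 30.4), a 1.17-fold difference with overlapping ranges (adjusted p = 0.023). *Ctsh* measured 215.5 to 274.8 CPM at ZT10 (median 252.6) and 196.5 to 242.4 CPM at ZT22 (median 210.3), a 1.16-fold difference with overlapping ranges (adjusted p = 0.0041). The calls of *Ctsa* and *Ctsl* held when replicate a, b or c of every group was omitted, whereas *Ctso* (0.109) was lost without replicates a, *Ctsh* without a (0.074) or c (0.175) and *Ctsf* without a (0.256) or b (0.131).

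The other members did not pass for time of day. *Ctsc* was nearest to the threshold, with means of 126.7 CPM at ZT2 and 95.6 CPM at ZT14 over both genotypes and a fitted 1.28-fold difference (adjusted p = 0.058). Without the control liver at ZT18 that was high in macrophage markers, an omission chosen after the data were seen, its adjusted p was 0.021. Then 6 members were past the threshold. *Ctss* (adjusted p = 0.127), *Ctsz* (0.162), *Ctsb* (0.431) and *Ctsd* (0.653) were further from it. *Ctsd* was the flattest, with a 1.05-fold difference between its highest and lowest time, and *Ctsb* had 1.08-fold.

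**Figure D4:**
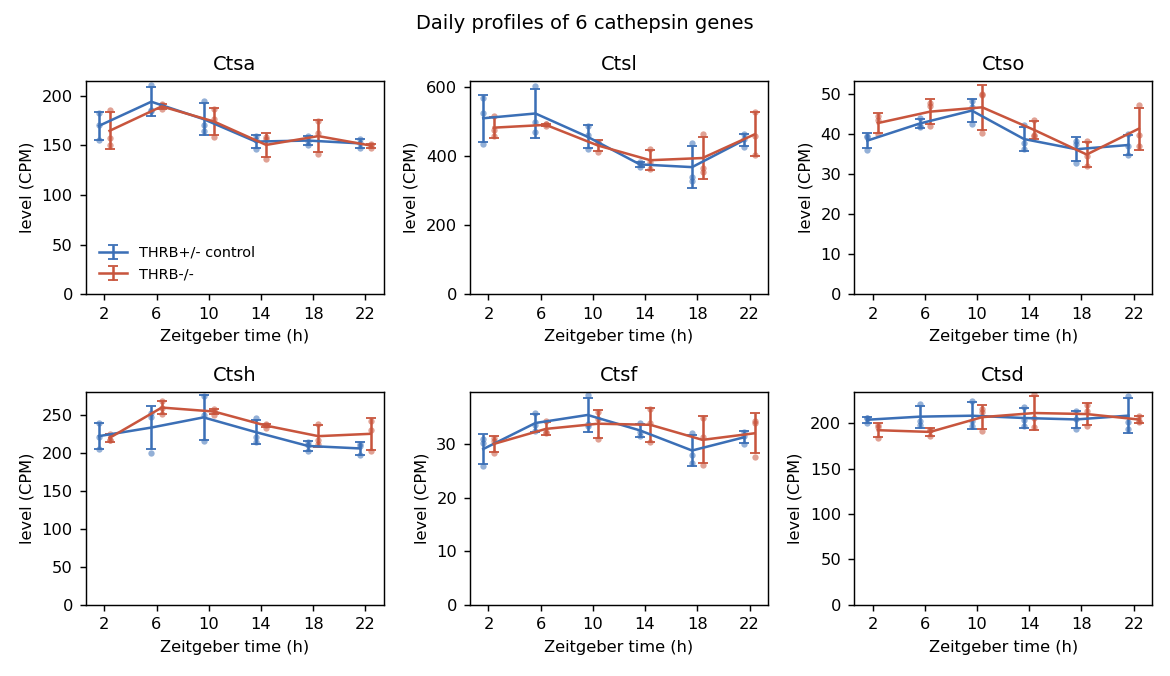
Levels in CPM (vertical axes, from 0) against zeitgeber time in hours for *Ctsa*, *Ctsl*, *Ctso*, *Ctsh* and *Ctsf*, which varied over the day, and for *Ctsd*, which had the smallest daily range. Points are mice, lines join means of 3 mice, bars are SD, with controls in blue and THRB-/- livers in red. *Ctsl* is highest at ZT6 and 1.34-fold lower at ZT18, while *Ctsd* changes by 1.05-fold.

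The same test was made for the times within each genotype (18 livers), in a fit of 12 group means to all 36 libraries. In controls *Ctsa* (adjusted p = 0.013), *Ctsl* (0.0031) and *Ctso* (0.042) varied over the day, beside 26.4% of tested genes. In THRB-/- livers *Ctsa* (0.026) and *Ctso* (0.017) did, beside 24.9%, and *Ctsl* had an adjusted p of 0.085. The test of a different daily course between the genotypes passed for no member (adjusted p = 0.9999 for each) and for no gene at all after adjustment, with 484 genes at an unadjusted p under 0.05 in edgeR and 0 genes past the threshold in DESeq2. The unadjusted interaction p of *Ctsc* was 0.104 and that of *Ctsl* 0.759, so the calls for *Ctsl* are not shown to differ between the genotypes.

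A curve with a period of 24 h was fitted in each genotype. It passed in controls for *Ctsa*, *Ctsl* and *Ctso*, beside 33.1% of tested genes, and in THRB-/- livers for these 3 and *Ctsh*, beside 28.9%. *Ctsl* had the largest amplitude of them, 0.27 ± 0.047 log2 units (SE) in controls and 0.19 ± 0.041 in THRB-/- livers, with peaks at ZT 4.32 ± 0.652 and 3.38 ± 0.836 h. *Ctsa* peaked at ZT 6.47 ± 0.724 and 6.66 ± 1.10 h and *Ctso* at ZT 8.35 ± 0.791 h in controls and ZT 6.75 ± 1.0 h in THRB-/- livers. *Ctsh* peaked at ZT 8.92 ± 1.20 and 8.84 ± 0.833 h. The peak differences of these 4 genes, between -1.61 and 0.19 h, were less than 1.5 times their standard errors. *Ctsc* did not pass in either genotype, with an adjusted p of 0.672 in controls and 0.088 in THRB-/- livers.

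Genes of proteins that act with cathepsins, and related genes, were read by role. Over all tested genes 45.0% were called for time of day and 0.950% for genotype, which stand beside each count below. With so low a share for genotype, no call is the likely count in a short list. The lists were not tested as sets. Of 14 genes for cystatins, stefins, kininogens and other inhibitors or related proteins, not all of them inhibitors of cathepsins, 8 could be tested. None of these differed between the genotypes and 4 varied over the day. *Serpinb9*, an intracellular protease inhibitor, was 2.19-fold higher at ZT2 than at ZT14 (adjusted p = 1.7e-05). *Kng2*, *Hrg* and *Cstb*, the last of them encoding cystatin B, varied by 1.26, 1.20 and 1.17-fold. Of the 11 granule proteases that CTSC activates, 4 had enough reads, and these 4 summed to at most 2.71 CPM in any library. None of the 4 differed by genotype. *Prtn3*, proteinase 3, varied over the day at 0.220 CPM (adjusted p = 0.0031).

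Of 3 genes for the partners of CTSA, *Neu1*, neuraminidase 1, varied over the day, 1.39-fold higher at ZT6 than at ZT14 (adjusted p = 3.6e-10), the time at which *Ctsa* was highest too. None of the 3 differed by genotype. Of 10 genes for sorting of enzymes to the lysosome 5 varied over the day, led by *Sort1*, the receptor sortilin (2.32-fold, highest at ZT6), *Gga2*, an adaptor of the Golgi (1.68-fold, highest at ZT22), and *Igf2r*, the large mannose 6-phosphate receptor (1.41-fold, highest at ZT6). *M6pr*, the small one, varied by 1.13-fold and was highest at ZT22. None of the 10 differed by genotype.

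Of 8 other lysosomal proteases 3 varied over the day and none by genotype. *Scpep1*, a serine carboxypeptidase, varied by 1.31-fold and *Tpp1*, tripeptidyl peptidase 1, by 1.15-fold. Of 28 lysosomal hydrolases 17 varied over the day and none by genotype. *Arsa*, arylsulfatase A, was 2.19-fold higher at ZT6 than at ZT14, and *Lipa*, the acid lipase, had its highest level at ZT22 (1.60-fold).
Of 18 genes of the lysosomal membrane 13 varied over the day, with *Npc1*, a cholesterol transporter, at 2.04-fold and *Mcoln1*, a calcium channel, at 1.39-fold, both highest at ZT10. *Clcn7*, a chloride and proton exchanger, was the member of that list that differed by genotype. It fell from 36.5 to 31.4 CPM, a log2 difference of -0.22 with a standard error of 0.050 (adjusted p = 0.020), and this call was lost when the replicates a (0.198), b (0.125) or c (0.144) were omitted. Of 9 regulators of lysosomal genes 8 varied over the day, beside 45.0% of all tested genes, and none by genotype, beside 0.950%. *Flcn*, folliculin, was 3.09-fold higher at ZT6 than at ZT18, and *Tfeb*, a transcription factor of lysosomal genes, was higher at ZT10 than at ZT2 by 0.59 log2 units. As a reference for the sampling, 15 of 15 core clock genes varied over the day, with *Dbp* 134-fold higher at ZT10 than at ZT2.

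Of 13 cathepsin genes outside the group, 3 could be tested (*Ctse*, *Ctsk* and *Ctsw*), all at low level, and 8 had no read in any library. None of the 3 differed by genotype, and *Ctsk*, the osteoclast cathepsin, varied over the day at 1.02 CPM (2.18-fold, adjusted p = 0.0037).

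Cell type markers were read beside the cathepsins, and 0.950% of all tested genes were called for genotype. Of 15 Kupffer cell and macrophage markers all were detected, none passed for genotype, and 14 had a lower THRB-/- level in the fit, with a median log2 difference of -0.06. Their summed level was 440.9 to 1148 CPM in controls and 416.4 to 803.7 CPM in THRB-/- livers. *Slc40a1*, the iron exporter, was the marker above 0 (0.14) and the one that varied over the day. The median of the sum was 543.7 CPM in controls and 549.8 CPM in THRB-/- livers. This sum includes *Slc40a1*, the most counted of the 15, with a mean of 139.7 CPM in controls and 154.8 CPM in THRB-/- livers. Whether the number of macrophages differed was not tested. None of 10 neutrophil and monocyte, 12 T and NK cell, 6 B cell, 6 dendritic cell, 10 endothelial, 10 stellate cell and fibroblast, 6 cholangiocyte and 10 hepatocyte markers passed for genotype, nor did any of 7 genes of class II antigen presentation. Of the 10 neutrophil and monocyte markers 5 had enough reads for a test. These 5 summed to 2.82 to 6.90 CPM in controls and 2.99 to 6.80 CPM in THRB-/- livers.

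Among mice of the same genotype and time the cathepsins differed in how they went with these markers. After the mean of each group of 3 was subtracted, *Ctss* followed the mean of the 15 macrophage markers with a Pearson r of 0.94 (Spearman 0.90) over 36 libraries, and 0.91 without the 2 libraries farthest out. For *Ctsc* r was 0.56 (Spearman 0.52), and 0.55 without these 2. *Ctsb* had 0.53, and the other 7 members lay between -0.14 and 0.34. By genotype, *Ctss* had r of 0.95 in controls and 0.92 in THRB-/- livers (n = 18 each). *Ctsc* had 0.34 in controls (0.07 without the 2 libraries farthest out) and 0.86 in THRB-/- livers (0.77 without them). The difference between these values was not tested, and the genes of a library share its scaling factor. The 3 deviations of a group sum to 0, so fewer values are free than the numbers of libraries given.
Between pairs of members, the median of the 45 correlations was 0.20, from -0.44 to 0.65, with 34 above 0. *Ctsc* went most closely with *Ctsf* (0.63), *Ctss* (0.61), *Ctso* (0.55) and *Ctsb* (0.52).

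**Figure D5:**
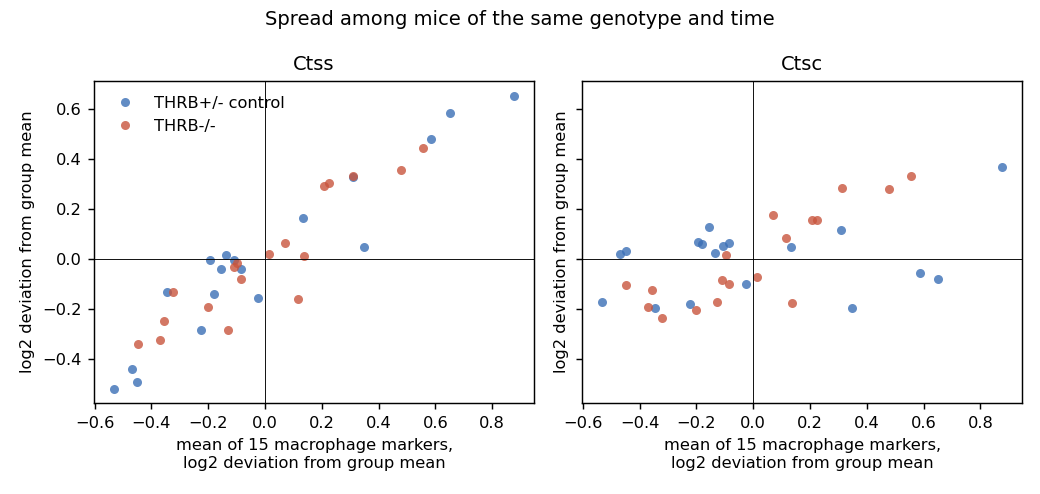
Deviation of *Ctss* (left) and *Ctsc* (right) from the mean of its group of 3 mice, in log2 units, against the same deviation of the mean of 15 macrophage markers. Points are 36 livers, controls in blue and THRB-/- in red. The points of *Ctss* lie close to a line (r of 0.94), those of *Ctsc* less so (r of 0.56).

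The genes with a level most like *Ctsc* were sought among 7784 genes with a mean of at least 10 CPM, over the 36 libraries. The highest Pearson r were those of *9030619P08Rik* (0.78), *Gm10020* (0.77), *Pdp2*, a phosphatase of the pyruvate dehydrogenase complex (0.68), *Gm4294* (0.63) and *Psap*, prosaposin, the precursor of the saposins of the lysosome (0.61). The lowest were those of *Rpl15* (-0.77), *Wdr18* (-0.74), *Rabggta* (-0.68), *Ugt2b1* (-0.67) and *Prodh* (-0.67). Since *Ctsc* was selected on genotype, genes that differ by genotype stand at both ends of such a list. The log2 difference was 2.73 for *9030619P08Rik* and -0.21 for *Rpl15*. After the group means were subtracted, the highest r were those of *Rap1b* (0.80), *Psap* (0.73), *Tor1aip1* (0.67), *Laptm5* (0.67) and *Sirpa* (0.67), the last 2 of them known from macrophages and other blood cells. *Psap* was in both lists. Its log2 difference by genotype was 0.08 against 0.64 for *Ctsc*.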

How the data were processed

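RNA of 36 mouse livers was sequenced from poly-A selected, non-directional, paired-end Illumina libraries. The authors aligned reads to GRCm38 (mm10) with HISAT2 and deposited raw counts per gene from featureCounts. Versions, annotation release and the treatment of reads with several matches are not given in the sources used here. Groups came from the sample titles. Genes with a summed count of at least 100 were kept (17994 of 54532), scaled by TMM, and tested in edgeR 4.0.16 (R 4.3.3) by quasi-likelihood F tests with Benjamini-Hochberg adjustment over all kept genes at 0.05, for genotype with sampling time, time with genotype, their interaction, time within a genotype and a 24 h sine curve. Log2 CPM used a prior count of 2, intervals are 95% (estimate ± 1.96 SE), and CPM per kb used the deposited gene length. DESeq2 1.42.0 and other settings were alternatives. Code was tested on simulated data.

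Named genes were the 10 members, the 5 genes of highest and of lowest correlation with *Ctsc* and the 5 highest after group means were subtracted (mean of at least 10 CPM), and, of each list, up to 5 genes past the threshold, by size. Some of these are not printed. The members, lists and tests were chosen with earlier results of these data known. Replicates did not agree within sampling noise (36 pairs), so none was a repeat deposit.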

Additional observations from a re-analysis of the deposited data

How the results depend on the processing

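The log2 difference of *Ctsc* stayed between 0.57 and 0.68 under 10 alternatives, and 90 values of the other 9 cathepsins between -0.06 and 0.10. The cause of the changes below was not tested. With the mice of one letter left out, genes past the threshold were 40 to 81 for genotype (171 with all mice), 2194 to 2722 for time within controls (4748), 1909 to 2325 for time within THRB-/- livers (4479), 3113 to 4006 for the 24-h curve in controls (5952) and 2343 to 3188 in THRB-/- livers (5207), and 3 to 5 members for time of day (5). Fewer mice were tested there. For genotype, 306 genes were past it in DESeq2's likelihood ratio test and 65 without sampling time in the model. The labels do not say that a letter marks a shared litter or day, although the animal numbers of same-letter mice often lie close. The correlation of deviations of such mice was above 0 in 17 of 18 pairs (median 0.10) and over 0.1 in 9. The main model treats mice as pairs only if all 18 are over 0.1, so it does not pair them. This rule cannot decide whether same-letter mice share a litter or day. The genotype counts and calls of the report rest on the model without pairs. With a replicate block of same-letter pairs 387 genes passed for genotype (171 without it). A letter block gave 8515 genes and 5 members for time of day (8106 and 5 without it). *Ctsa* and *Ctsl* kept their time-of-day call in all alternatives. Beside the calls lost without single letters that the report gives, *Ctsf* lost it without a filter on low counts (adjusted p = 0.062, edgeR). *Clcn7* lost its genotype call without sampling time in the model (0.327). *Ctsc* passed without letter b (0.041), without the control liver b at ZT18 (0.021, an alternative chosen after seeing the data, with 6 members past the threshold for time, 8230 genes for time and 170 for genotype) and in DESeq2 (0.038), *Ctss* without a (0.037) and *Ctsz* without c (0.013). Without gene length *Ctsc* stood in place 7 of the members in controls, in place of 9. Of the 5 genes most like it, 3 were shared with the list by Spearman's rho and 3 with that over 12 group means. Groups of 3 mice limit the precision at single times.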
